A study of Homo sapiens with 8 samples.

Results

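The respiratory chain and ATP synthase genes of a breast cancer cell line are described here: 99 genes of the 15041 coding genes listed in the count tables. They were chosen by symbol: complex I (NDUFA, NDUFB, NDUFC, NDUFS and NDUFV genes, with the NDUFAF assembly factors left out; NDUFA4, now known as a complex IV subunit, and its paralogue NDUFA4L2 stay here by symbol), complex II (SDHA to SDHD), complex III (UQCR genes and CYC1), cytochrome c (CYCS), complex IV (COX4 to COX8 genes), complex V (ATP5 genes) and every gene of the mitochondrial genome. Of these, 86 are nuclear-encoded (38 in complex I, 4 in complex II, 10 in complex III, 1 for cytochrome c, 14 in complex IV and 19 in complex V). The other 13 are mitochondrially encoded (7 in complex I, 1 in complex III, 3 in complex IV and 2 in complex V). Complex V includes by symbol ATP5EP2, which has no protein-coding transcript in GENCODE 29. It also includes ATP5J2-PTCD1, which shares 93.8% of its exon bases with other genes.

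The cells were MDA-MB-231, an established human triple-negative breast cancer line of mesenchymal type. They were WT or carried a knockdown of ATM, the kinase that signals DNA double-strand breaks. Each genotype was left untreated or was given 5 Gy of ionizing radiation and cultured for a further 4 h, which makes 4 groups of 2 libraries each. Single cells were picked by hand, amplified by a modified Smart-seq2 protocol and made into 3′ libraries. How ATM was knocked down is not given in the sources used here. Nor do the labels say that a group's 2 libraries were cultured separately, so the p-values rest on a spread that may be technical. All WT libraries share 1 suffix in their titles, all knockdown libraries share another, and what the suffix marks is not given in the sources used here, so genotype and whatever it marks cannot be told apart.

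Complexes I, III and IV pass electrons from NADH to oxygen and pump protons across the inner mitochondrial membrane, complex II feeds in electrons from succinate, and complex V uses the proton gradient to make ATP. Cytochrome c carries electrons from complex III to complex IV, and it triggers apoptosis when it leaks into the cytosol. Complexes I, III, IV and V are built from subunits of both genomes, whereas complex II is wholly nuclear-encoded. The mitochondrial genes are transcribed as long polycistronic RNAs inside the organelle by a polymerase of their own, so the subunits of a complex come from separate transcription systems.

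The tables held 378 cells, of which 363 passed a minimum of 1000 genes and 5000 counts, and no cell label occurred in more than 1 library. Counts were summed over the kept cells of each library, which gave 9321268 to 24256471 counts per library. Levels are given as CPM, counts scaled to a library total of 1000000, and are compared between libraries, not between genes. ATM counted 28.0 to 57.9 CPM in the WT libraries and 13.02 to 32.95 CPM in the libraries labelled knockdown. The highest of those, library 2 of the untreated knockdown with 32.95 CPM, lay inside the WT range. The mesenchymal markers VIM (1828 to 2944 CPM), CD44 (418 to 892 CPM) and CAV1 (1508 to 2118 CPM) were present in every library. So were AXL (345 to 722 CPM), TGFBI (42.8 to 103 CPM) and LGALS1 (1717 to 4792 CPM). VIM and CD44 were higher, and TGFBI and LGALS1 lower, in all knockdown libraries than in all WT libraries. ESR1 was not listed, PGR reached at most 0.289 CPM and ERBB2 counted 8.06 to 25.5 CPM. The leukocyte gene PTPRC reached at most 1.81 CPM, and the fibroblast marker list (COL1A1, COL3A1 and DCN) summed to at most 13.2 CPM. The endothelial marker list (PECAM1, CDH5 and VWF) summed to 19.8 and 32.1 CPM in untreated WT and to 0 to 6.40 CPM in the other 6 libraries, nearly all of it PECAM1, with CDH5 and VWF at 0 in 7 of 8 libraries each; its part in the results was not tested.

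Of the 99 members, 93 were listed in all 8 tables, and 94 passed the filter on low counts (81 nuclear and 13 mitochondrial) among 12456 genes tested. NDUFA3 (25 counts over all libraries), NDUFA4L2 (3 counts), NDUFA6, COX7A1 and ATP5J2-PTCD1 (1 count each) were too low to test. COX6B2 passed, but its counts came from 1 library of irradiated WT (3.11 CPM) and 1 of untreated knockdown (2.04 CPM), and it was at 0 in the other 6, so no fold is given for it. Log2 differences and their standard errors (SE) were estimated in edgeR by quasi-likelihood over all 12456 genes, with Benjamini-Hochberg adjustment, and a gene is called when the adjusted p is below 0.05.

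Nuclear-encoded members held 2.57% and 2.91% of all counts in the untreated WT libraries and 2.96% and 3.04% in the irradiated WT libraries. They held 2.64% and 2.43% in the untreated knockdown and 2.57% and 2.61% in the irradiated knockdown. Both irradiated WT libraries were thus above both untreated ones, the knockdown groups overlapped each other, and the irradiated knockdown lay below the irradiated WT. Mitochondrially encoded members held 9.36% and 9.63% in untreated WT and 9.76% and 10.3% in irradiated WT. In the knockdown they held 11.1% and 12.0% untreated and 10.2% and 10.6% after irradiation. The mitochondrial share was therefore higher after irradiation in WT and lower after irradiation in the knockdown, with no overlap between groups in either genotype. The shares carry no test.

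**Figure D1:**
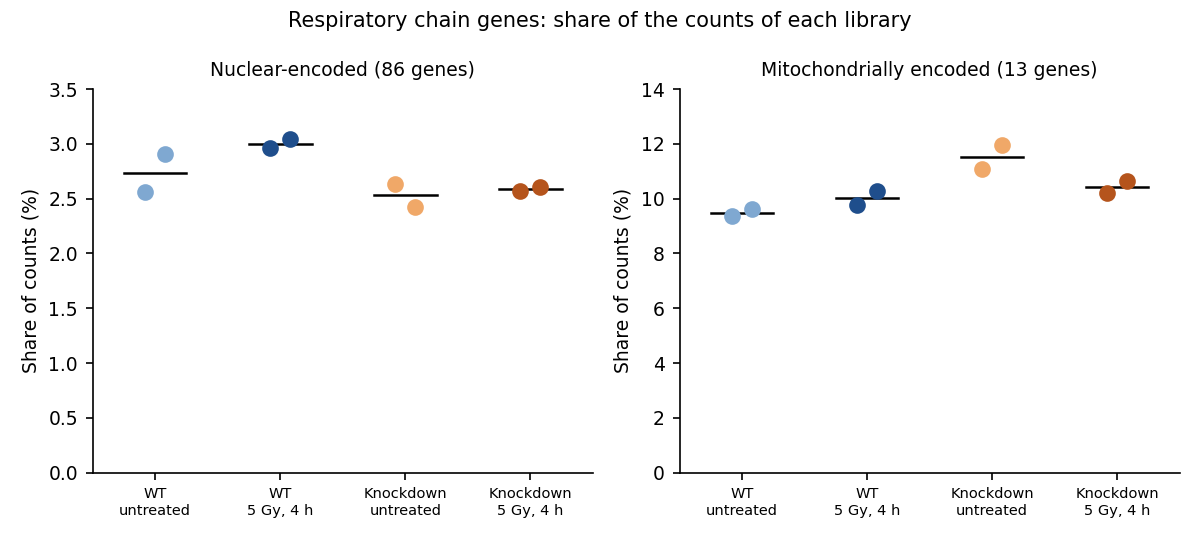
Share of all counts (%, vertical axes starting at 0) held by the nuclear-encoded members (left) and the mitochondrially encoded members (right) in each of the 8 libraries (points), with the mean of each group (line). The mitochondrial share is highest in the untreated knockdown (11.1% and 12.0%), and the nuclear share is highest in irradiated WT (2.96% and 3.04%).

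The mitochondrial counts per nuclear count differed more between genotypes than between treatments. The ratio was 3.65 and 3.31 in untreated WT, 3.30 and 3.38 in irradiated WT, 4.204 and 4.93 in untreated knockdown and 3.98 and 4.08 in irradiated knockdown. No knockdown library reached down into the WT range. Complex IV showed the widest gap, from 5.19 to 6.06 in the WT libraries and from 8.13 to 9.53 in the knockdown libraries. Complex III ranged from 2.35 to 2.75 in WT and from 3.16 to 3.97 in the knockdown. In complex I the genotypes overlapped, with 3.74 to 4.41 in WT and 3.86 to 5.05 in the knockdown, and so they did in complex V, with 1.40 to 1.66 and 1.58 to 2.05.

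CYCS, which encodes cytochrome c, rose after irradiation in WT, and so did ATP5G1, 1 of the genes for the membrane rotor subunit c of ATP synthase. These were 2 of 94 members called (2.13%), where 1.65% of all genes tested were called (0.907% called higher) and 3.56% of the genes whose average log2 CPM was 5 or more. CYCS counted 283 and 329 CPM in untreated WT and 492 and 514 CPM in irradiated WT, a log2 difference of 0.74 (SE 0.14, edgeR adjusted p = 0.0175), or 1.67-fold. The irradiated libraries stood well above the untreated ones. ATP5G1 counted 233 and 285 CPM untreated and 372 and 461 CPM irradiated (log2 difference 0.70, SE 0.17, edgeR adjusted p = 0.0451). These groups did not overlap either, but the 2 irradiated libraries were far apart. Both calls were lost without library 1 of untreated WT (CYCS adjusted p = 0.0640 and ATP5G1 adjusted p = 0.172, edgeR) and without library 2 of irradiated WT (0.0654 and 0.259). With only the 2 WT groups in the edgeR fit, the adjusted p was 0.0952 for CYCS and 0.146 for ATP5G1.

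In the other complexes, the members with the smallest p in WT stayed short of the threshold. CYC1, the cytochrome c1 subunit that hands electrons to cytochrome c, counted 256 and 313 CPM untreated and 483 and 415 CPM irradiated (log2 difference 0.68, SE 0.17, edgeR adjusted p = 0.0541). NDUFS6, an accessory subunit of the NADH-oxidising arm of complex I, went from 222 and 259 CPM to 353 and 385 CPM (0.64, SE 0.16, edgeR adjusted p = 0.0633). In neither gene did the groups overlap, and CYC1 passed the threshold under 9 and NDUFS6 under 7 of 19 alternatives (adjusted p 0.00425 to 0.251 and 0.00658 to 0.224). COX7A2 of complex IV had a log2 difference of 0.31 (SE 0.14, edgeR adjusted p = 0.330). The catalytic subunit SDHA of complex II had 0.21 (SE 0.17, edgeR adjusted p = 0.647).

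By complex, 62 of 81 nuclear members had a positive difference in WT, with a median of 0.16 on the log2 scale beside -0.01 over all genes tested and 0.05 over the 5029 genes whose average log2 CPM was 5 or more. The count was 25 of 35 in complex I (median 0.16), 4 of 4 in complex II (median 0.10), 8 of 10 in complex III (median 0.08), 9 of 13 in complex IV (median 0.12) and 15 of 18 in complex V (median 0.20). Of the mitochondrial members, 9 of 13 were positive with a median of 0.10 and none was called. Over all genes tested 6075 of 12456 were positive, and 2769 of the 5029 genes whose average log2 CPM was 5 or more. The counts and medians are a description, and no test was made over the list.

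No member was called for irradiation in the knockdown, where 0.225% of all genes tested were called. The count at an unadjusted p below 0.05 was 7 of 94 with edgeR, beside 1104 of all 12456 genes. The DESeq2 Wald test called 2 (MT-CYB and MT-ATP8), beside 1.42% of all genes with that test. The nuclear members split 48 higher and 33 lower, with a median of 0.03 on the log2 scale, while 12 of 13 mitochondrial members were lower, with a median of -0.16. Over all genes tested the split was 6325 higher and 6046 lower, with a median of 0.01. CYCS, called in WT, counted 540 and 528 CPM in the untreated and 640 and 612 CPM in the irradiated knockdown (log2 difference 0.24, SE 0.14, edgeR adjusted p = 0.642). Over the mean of both genotypes CYCS was the only member called, in a comparison that called 1.49% of all genes and 0.642% as higher (log2 difference 0.49, SE 0.10, edgeR adjusted p = 0.0197). That call was lost without library 1 of the irradiated knockdown (adjusted p = 0.0608). ATP5G1 counted 438 and 367 CPM in untreated and 410 and 437 CPM in irradiated knockdown, and these groups overlapped. The members with the smallest p in the other nuclear complexes were NDUFC2 in complex I (log2 difference 0.39, SE 0.23), SDHC in complex II (0.42, SE 0.24), UQCR10 in complex III (-0.29, SE 0.11) and ATP5E in complex V (0.21, SE 0.11). Their edgeR adjusted p-values were 0.641, 0.643, 0.441 and 0.622, so none passed.

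**Figure D2:**
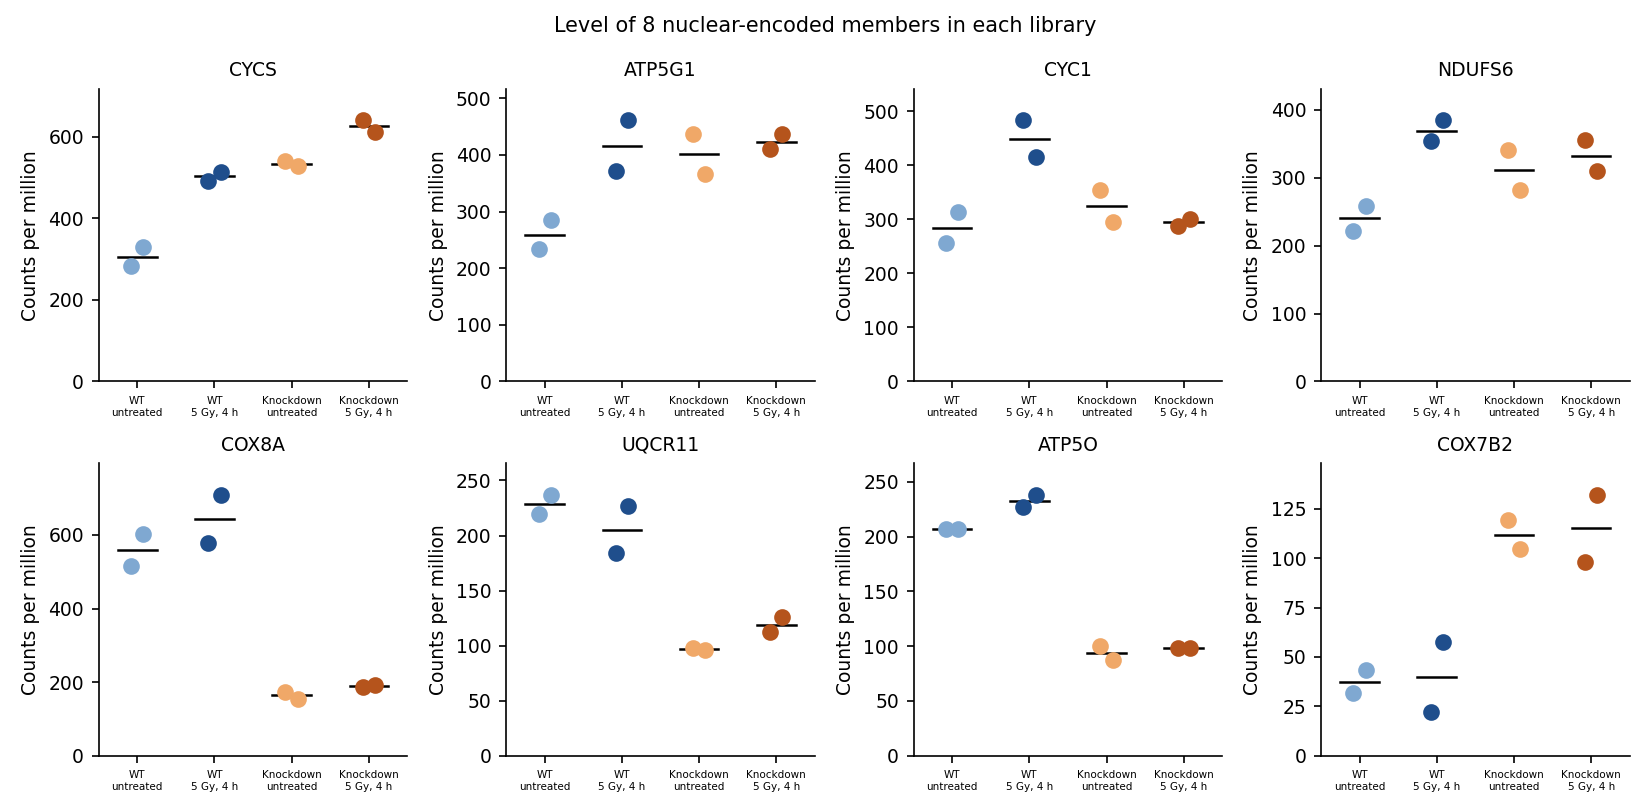
CPM (vertical axes starting at 0) of 8 nuclear-encoded members in each library (points), with the mean of the group (line). CYCS, ATP5G1, CYC1 and NDUFS6 (top row) are higher in both irradiated WT libraries than in both untreated ones, and COX8A, UQCR11 and ATP5O (bottom row) are lower, and COX7B2 higher, in all 4 knockdown libraries than in all 4 WT libraries.

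The test of the difference between the genotypes' responses called no member, against 0.185% of all genes tested. At an unadjusted p below 0.05 (edgeR) were 14 of 94 members. Beside them stood 1183 of all 12456 genes, and 650 of the 5029 genes whose average log2 CPM was 5 or more. The DESeq2 Wald test called 4 (CYC1, MT-CYB, MT-ATP6 and MT-ATP8), all with a lower response in the knockdown, beside 3.75% of the 4245 genes to which that test gave an adjusted p. Mitochondrial members came nearest in the edgeR fit. MT-ATP8, a small membrane subunit of ATP synthase, counted 985 and 978 CPM in untreated WT, 1148 and 1392 CPM in irradiated WT, 2229 and 2239 CPM in untreated knockdown and 1689 and 1564 CPM in irradiated knockdown. It was higher after irradiation in WT and lower in the knockdown, and the responses differed by -0.84 on the log2 scale (SE 0.16, edgeR adjusted p = 0.0507). MT-CYB, the only mitochondrially encoded subunit of complex III, counted 9205 and 9166 CPM in untreated WT and 10710 and 9969 CPM in irradiated WT. In the knockdown it counted 13580 and 13980 CPM untreated and 10630 and 10920 CPM irradiated. The untreated knockdown stood above the other 3 groups, and the responses differed by -0.54 (SE 0.11, edgeR adjusted p = 0.0597). Leaving out single libraries brought the number of members called in this comparison to between 1 and 3.

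The ATM knockdown differed from WT in far more members than irradiation did. In untreated cells 31 of 94 members were called (33.0%), 12 higher and 19 lower in the knockdown. The background was 9.94% of all genes tested (4.83% higher and 5.11% lower) and 17.8% of the 5029 genes whose average log2 CPM was 5 or more. In irradiated cells 24 members were called (25.5%), 4 higher and 20 lower, where 5.1% of all genes (2.18% higher and 2.92% lower) and 10.1% of the more highly expressed genes were called. The 2 comparisons have no library in common, and 21 members were called in both in the same direction, 17 lower and 4 higher, which is 67.7% of the untreated and 87.5% of the irradiated calls. The test of whether a genotype difference changed with treatment is the test of the responses above, which called no member, so a call in 1 comparison alone does not show that the comparisons differed. No member was called in opposite directions, and 77 of 94 had the same sign. The 2 comparisons set the same genotypes and title suffixes against each other, and this overlap was not computed over all genes. It is therefore not shown to be particular to these members. Without library 2 of the untreated knockdown, whose ATM level lay in the WT range, 27 members were called in untreated cells. The irradiated count fell to 15 without library 2 of irradiated WT, to 15 without library 1 of irradiated knockdown and to 13 without its library 2. The largest changes were not those of 1 complex: the 17 genes lower in both comparisons were 6 of complex I (1 of them mitochondrial), 3 of complex III, 2 of complex IV and 6 of complex V.

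**Figure D3:**
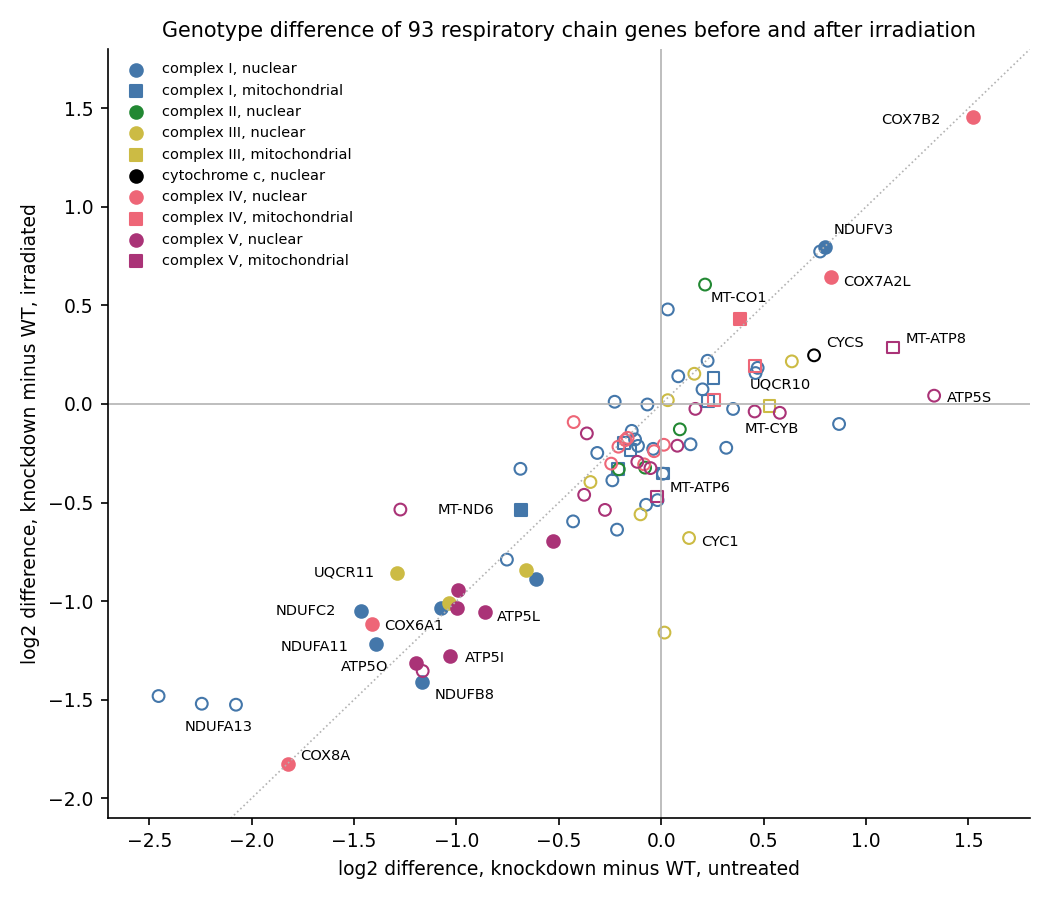
Log2 difference between knockdown and WT in untreated cells (horizontal) and irradiated cells (vertical) for 93 tested members (COX6B2 left out), coloured by complex, with circles for nuclear and squares for mitochondrial genes. Filled symbols are the 21 members called in both comparisons, and the dotted line marks equal differences; COX8A lies at -1.82 and -1.83 and COX7B2 at 1.52 and 1.45.

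In complex I, 8 of 35 nuclear members were called in untreated cells (22.9%) and 7 of 35 in irradiated cells. All but NDUFV3 were lower in the knockdown. The untreated background was 9.94% of all genes tested and 17.8% of those whose average log2 CPM was 5 or more. In irradiated cells these were 5.1% and 10.1%. Whether complex I was called more often than genes of like expression was not tested. The 5 nuclear genes lower in both were accessory subunits of the membrane arm: NDUFA11, NDUFB1, NDUFB2, NDUFB8 and NDUFC2. NDUFC2 counted 98.0 and 130 CPM in untreated WT and 45.7 and 39.9 CPM in untreated knockdown, and 99.7 and 122 CPM against 57.7 and 54.4 CPM after irradiation. The log2 differences were -1.47 (SE 0.23, edgeR adjusted p = 0.000905) and -1.05 (SE 0.23, edgeR adjusted p = 0.0139). NDUFA11 differed by -1.39 and -1.22, NDUFB1 by -1.07 and -1.04, NDUFB8 by -1.17 and -1.41 and NDUFB2 by -0.61 and -0.89. The opposite pattern was seen in NDUFV3, a small accessory subunit near the NADH site: 102 and 97.9 CPM in untreated WT and 190 and 172 CPM in untreated knockdown (0.80, SE 0.17, edgeR adjusted p = 0.00749), with 0.80 again after irradiation. NDUFA13 (-2.24, 22.5 and 24.1 CPM against 6.08 and 4.13 CPM) and NDUFS4 (-0.69) were called in untreated cells only, and NDUFB11 (-0.60) in irradiated cells only. Of the catalytic core, NDUFS3, NDUFS7, NDUFS8 and NDUFV1 were not called in either comparison. NDUFS1, NDUFV2 and NDUFA7 counted at most 6.28, 8.21 and 7.81 CPM in any library, and their SEs were about 1 on the log2 scale.

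None of the 4 subunits of complex II was called in any comparison. SDHA, the flavoprotein that oxidises succinate, counted 130 to 168 CPM over the 8 libraries, and its log2 differences between genotypes were 0.09 and -0.13. SDHB, the iron-sulfur subunit, counted 128 to 190 CPM, with -0.21 and -0.33. The membrane anchors SDHC (57.3 to 101 CPM) and SDHD (207 to 265 CPM) had differences of 0.21 and 0.61, and of -0.08 and -0.32. The SEs of these differences ran from 0.15 to 0.24, and these p-values do not show that complex II was alike in both genotypes.

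In complex III the small subunits UQCR11, UQCRB and UQCRQ were lower in the knockdown in both comparisons. UQCR11 counted 220 and 237 CPM in untreated WT and 98.1 and 96.2 CPM in untreated knockdown (log2 difference -1.29, SE 0.18, edgeR adjusted p = 0.000368), and 184 and 227 against 113 and 126 CPM in irradiated cells (-0.86, SE 0.18). UQCRQ differed by -1.04 and -1.01, and UQCRB by -0.66 and -0.84. UQCR10, another small subunit, went the other way in untreated cells, from 1060 and 1023 CPM in WT to 1705 and 1664 CPM (0.64, SE 0.11, edgeR adjusted p = 0.00224), and differed by 0.22 (edgeR adjusted p = 0.331) in irradiated cells, which did not pass. CYC1 did not differ by more than its error in untreated cells (0.14, SE 0.17), but was lower in irradiated knockdown than in irradiated WT (-0.68, SE 0.17, edgeR adjusted p = 0.0272). That comparison shares the irradiated WT libraries with the near-miss of CYC1 in WT described above. The core proteins UQCRC1 and the Rieske iron-sulfur protein UQCRFS1 were not called.

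CYCS was higher in the untreated knockdown than in untreated WT by 0.75 on the log2 scale (SE 0.14, edgeR adjusted p = 0.00281), a comparison that shares its WT libraries with the irradiation result above. In irradiated cells the difference was 0.25 (SE 0.14, edgeR adjusted p = 0.362). The 4 groups thus stood, from lowest to highest, as untreated WT, irradiated WT, untreated knockdown and irradiated knockdown, and the irradiated WT (492 and 514 CPM) and untreated knockdown (540 and 528 CPM) were close together. CYCS has 40 named pseudogenes in GENCODE 29, and how reads with several matches were counted is not given in the sources used here.

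Complex IV had the largest difference of all members called in both comparisons. COX8A, a small membrane subunit, counted 516 and 602 CPM in untreated WT, 579 and 710 CPM in irradiated WT, 173 and 155 CPM in untreated knockdown and 187 and 193 CPM in irradiated knockdown. The 4 knockdown libraries lay at about the same level and far below the 4 WT libraries, 3.54-fold lower in untreated cells (log2 difference -1.82, SE 0.16, edgeR adjusted p = 5.97e-06) and 3.55-fold lower in irradiated cells (-1.83, SE 0.16). COX6A1, the widely expressed isoform of subunit 6A, was lower by -1.41 and -1.12. COX7B2, an isoform of COX7B usually found in testis, was higher: 31.6 and 43.4 CPM against 119 and 105 CPM in untreated cells (1.52, SE 0.35, edgeR adjusted p = 0.0119) and 22.1 and 57.7 CPM against 98.1 and 132 CPM in irradiated cells (1.45, SE 0.35). COX7A2L, which joins complexes III and IV into supercomplexes, was higher by 0.83 and 0.64. The remaining nuclear subunits, among them the regulatory subunit COX4I1 and the core-binding COX5A and COX5B, were not called. Of the exon bases of COX8A, 34.5% are shared with an overlapping gene model, AP000721.1, and whether strand was used in counting is not given in the sources used here.

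In complex V the 6 genes lower in both comparisons were ATP5O, ATP5L, ATP5I, ATP5J, ATP5J2 and ATP5G2. ATP5O, the OSCP subunit that ties the catalytic head to the peripheral stalk, counted 207 and 207 CPM in untreated WT and 99.8 and 87.6 CPM in untreated knockdown (log2 difference -1.20, SE 0.17, edgeR adjusted p = 0.000465). In irradiated cells it counted 227 and 238 CPM against 98.4 and 98.3 CPM (-1.31, SE 0.17). The groups were far apart and the libraries within each close together. The membrane subunits g, e and f, encoded by ATP5L, ATP5I and ATP5J2, differed by -0.86 and -1.06, by -1.03 and -1.28 and by -0.998 and -1.04. ATP5J, coupling factor 6 of the peripheral stalk, differed by -0.53 and -0.69. The 3 genes for subunit c moved apart: ATP5G2 was lower (-0.99 and -0.94), ATP5G1 was higher in untreated cells (0.58, SE 0.17, edgeR adjusted p = 0.0371) and ATP5G3 was not called (-0.38 and -0.46). ATP5S, a factor related to ATP synthase, was called in untreated cells (1.33, SE 0.30) and had a difference of 0.04 in irradiated cells. The catalytic head subunits ATP5A1, ATP5B and ATP5C1 were not called in either comparison. ATP5I shares 61.6% of its exon bases with MYL5, the largest such share among the genes lower in both comparisons.

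The mitochondrial genes did not move as 1 block. MT-CO1, the catalytic subunit of complex IV, was higher in the knockdown in both comparisons: 11240 and 10640 CPM in WT against 14520 and 15170 CPM untreated (log2 difference 0.38, SE 0.07, edgeR adjusted p = 0.00269), and 11310 and 11840 against 16220 and 16580 CPM irradiated (0.43, SE 0.07, edgeR adjusted p = 0.00224). MT-CO2, the copper subunit that receives electrons from cytochrome c, was higher in untreated knockdown (0.46) and MT-CO3 by less (0.26, SE 0.07, edgeR adjusted p = 0.0379); the MT-CO3 call was lost in 10 of 19 alternatives. MT-CYB (0.53) and MT-ATP8 (1.13) were also called higher in untreated cells, and MT-ATP8 had the largest difference among them. MT-ND6, the only protein gene on the light strand of the mitochondrial genome, went the other way: 1626 and 1618 CPM in untreated WT, 1157 and 1449 CPM in irradiated WT, 1027 and 1071 CPM in untreated knockdown and 885 and 998 CPM in irradiated knockdown. Its differences between genotypes were -0.69 (SE 0.13, edgeR adjusted p = 0.00292) and -0.54 (SE 0.13, edgeR adjusted p = 0.0226).

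MT-ATP6, which forms the proton channel and overlaps MT-ATP8 on the same transcript, was called only in irradiated cells. It counted 12100 and 12590 CPM in irradiated WT and 9363 and 9348 CPM in irradiated knockdown (log2 difference -0.47, SE 0.07, edgeR adjusted p = 0.00169), while the untreated groups, with 10950 and 10600 against 11230 and 10830 CPM, overlapped. MT-ATP8 shares 22.2% of its bases with MT-ATP6, so reads from the overlap cannot be assigned to either gene. The other 6 complex I genes (MT-ND1 to MT-ND5 and MT-ND4L) had differences between -0.21 and 0.26 in untreated and between -0.35 and 0.13 in irradiated cells, and none was called. Within the mitochondrial counts, MT-CO1 had a group mean of 11.5% in untreated WT, beside 12.9% in untreated and 15.7% in irradiated knockdown, and MT-ND6 had 1.71%, beside 0.911% and 0.902%. Leaving out cells with more than 20% mitochondrial counts lowered the number of members called in untreated cells from 31 to 30 and left 24 in irradiated cells.

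**Figure D4:**
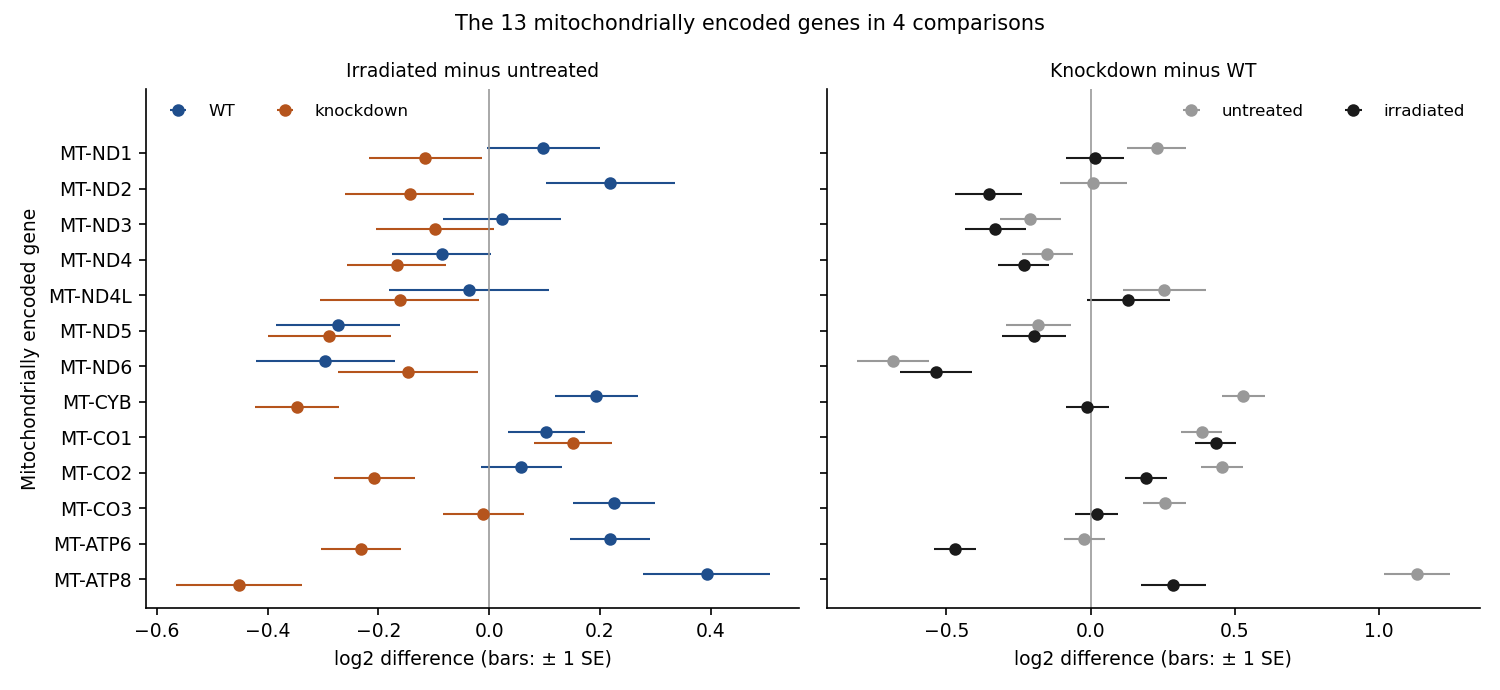
Log2 differences (horizontal axes, bars ± 1 SE of the edgeR fit) of the 13 mitochondrially encoded genes for irradiated minus untreated cells in each genotype (left) and for knockdown minus WT in each treatment (right). MT-CYB, MT-ATP6 and MT-ATP8 lie right of 0 in WT and left of 0 in the knockdown after irradiation, and MT-CO1 and MT-ND6 keep their side in both genotype comparisons.

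A few transcription factors are known to bind many respiratory gene promoters, and the promoter windows of the nuclear members were searched for the letters of their sites. Whether these factors had a part in the genotype differences was not tested. RefSeq windows (GRCh38.p14, 250 bases before to 50 after the start) were matched for 65 of 86 nuclear members. They were searched on both strands for CGCATGCG, the palindromic core of the site of nuclear respiratory factor 1 (NRF1), for CCGGAAGT, bound by the ETS factor GABP, and for AAGATGGCG, bound by YY1. The 3 motifs do not contain each other. The stretches below show the letters in 4 members, in capitals, each 5′ to 3′ on the gene's own strand. COX8A and UQCR11 are genes lower in the knockdown in both comparisons, and ATP5H and NDUFB4 were called in neither.

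COX8A (chr11:63974549-63974608, + strand, ETS letters): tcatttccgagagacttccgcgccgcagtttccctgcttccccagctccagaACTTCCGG
UQCR11 (chr19:1605546-1605605, - strand, ETS letters): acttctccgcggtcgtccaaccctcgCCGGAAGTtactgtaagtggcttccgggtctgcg
ATP5H (chr17:75047038-75047097, - strand, ETS letters): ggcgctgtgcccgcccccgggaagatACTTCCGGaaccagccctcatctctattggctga
NDUFB4 (chr3:120596152-120596211, + strand, NRF1 letters): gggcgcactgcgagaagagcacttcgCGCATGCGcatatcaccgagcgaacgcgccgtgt

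The NRF1 letters were in 11 of 65 member windows (16.9%) and in 3.28% of the windows of 15843 protein-coding genes. The ETS letters were in 11 member windows (16.9%, against 6.97%) and the YY1 letters in 9 (13.8%, against 3.21%). Of the 13 nuclear genes lower in both comparisons with a window, 4 held the ETS letters (COX8A, UQCR11, UQCRQ and ATP5J), 4 the NRF1 letters (COX6A1, ATP5G2, ATP5I and ATP5J) and 2 the YY1 letters (NDUFB8 and ATP5J). Of the 49 windows of members that were not called in both comparisons, 7 held each of the 3 motifs. The NRF1 count depended on the form searched: with a G before and a C after the core, 4 of 65 member windows (6.15%) and 1.99% of all windows matched, with 0 of the 13 and 4 of the 49. Both forms were chosen with the genotype results known. None of the 3 motifs was in the windows of NDUFV3, COX7A2L and COX7B2, the nuclear genes higher in both comparisons, or of CYCS, ATP5G1 and UQCR10, which were called higher in untreated knockdown. These are matches of letters in 1 window per gene start, not binding sites.

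Many respiratory chain subunits are small proteins from short transcripts, so length and base composition were set beside the differences. Over the 71 nuclear members at that level, the median transcript length was 1270 bases, beside 3250 bases over 5029 genes of that level, and the median GC content was 47.5% beside 46.6%. Across these 71 genes Spearman's rho between the genotype difference and length was 0.212 in untreated and 0.243 in irradiated cells, and with GC content -0.194 and -0.359. Across all 5029 genes the 4 values lay between -0.0153 and 0.0644. Genes are not independent replicates and these are descriptions.

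In single cells, shares were taken after every cell was thinned to 69000 counts, which 330 cells reached and 33 did not. The nuclear share was even from cell to cell, with medians of 2.36% to 2.97% over the 8 libraries and coefficients of variation of 11.8% to 19.8%. The mitochondrial share varied more, with medians of 9.28% to 11.8% and coefficients of variation of 21.6% to 51.3%. The highest variation was in the untreated knockdown (40.1% and 51.3%). Before thinning, 12 of the 363 kept cells held more than 20% mitochondrial counts, 9 of them in the untreated knockdown, whose libraries also had the lowest median number of genes per cell (5874 and 6053, against 6401 to 7537 in the other 6). At this depth 7 cells held more than 20% mitochondrial counts: 4 in untreated knockdown, 1 in irradiated knockdown and 2 in untreated WT. The most extreme, in the untreated knockdown, held 45.7% mitochondrial and 0.925% nuclear member counts. It had 4136 genes where the library's median was 5169. With those cells left out, the mean mitochondrial share was 11.7% and 12.05% in the untreated and 10.9% and 11.3% in the irradiated knockdown, beside 9.92% and 9.85% in untreated WT and 10.3% and 10.6% in irradiated WT.

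**Figure D5:**
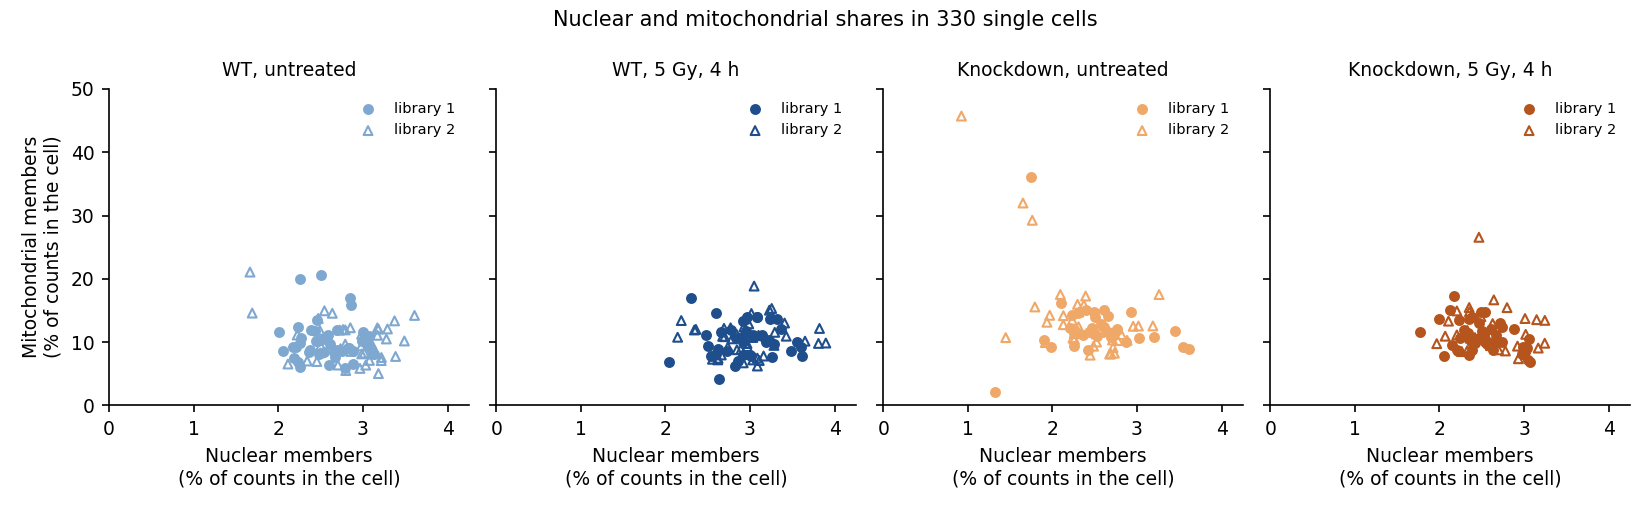
Nuclear (horizontal) against mitochondrial (vertical) member counts as a share of the counts in each of 330 cells thinned to 69000 counts, with filled circles for library 1 and open triangles for library 2 of each group. Cells above 20% mitochondrial counts are 4 in the untreated knockdown, 1 in the irradiated knockdown and 2 in untreated WT, and the nuclear share of most cells lies between 2% and 4%.

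Within a library, the nuclear shares of different complexes rose and fell together from cell to cell. Spearman's rho over cells was 0.499 to 0.722 between complexes I and V, 0.307 to 0.674 between I and IV, and 0.252 to 0.609 between III and V. The mitochondrial parts of complexes IV and V were likewise related (0.455 to 0.827). Nuclear against mitochondrial shares gave a rho of -0.437 to -0.133 in the 4 knockdown libraries and of -0.0875 to 0.0744 in the 4 WT libraries. Within a complex it ran from -0.446 to 0.0674 for complex I, from -0.161 to 0.412 for complex III, from -0.225 to 0.182 for complex IV and from -0.258 to 0.175 for complex V. Cells of a library share its preparation, shares of 1 total are not independent, and 33 to 46 cells stand behind each value. The mitochondrial share was lower in cells with more genes detected (rho -0.652 to -0.179).

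Single cells showed the COX8A difference in most cells of a library. COX8A had a median of 32 to 48 counts per thinned cell in the 4 WT libraries and of 10 to 14 in the 4 knockdown libraries, and at least 97.5% of cells in each library had a count. The upper quartile in every knockdown library (16.0 to 17.5) was below the lower quartile in every WT library (26.0 to 38.2). COX7B2 was found in 35.9% to 54.3% of WT cells and in 75.8% to 83.7% of knockdown cells, with medians of 0 to 1 and of 3 to 7 counts. CYCS had medians of 18 and 23 counts in untreated WT, 31 and 36 in irradiated WT, 28 and 30.5 in untreated knockdown and 43 and 40.5 in irradiated knockdown, with wide overlap between cells of different groups.

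Genes that assemble, express and feed the chain were taken from lists of known function. The 29 tested genes for mitochondrial genome expression and upkeep had a median difference of 0.64 on the log2 scale in untreated knockdown. Of them, 8 were called higher and none lower (27.6%, background 9.94% in either direction and 4.83% higher). They were LRPPRC (1.22) and SLIRP (0.58), which together stabilise mitochondrial mRNAs, the poly(A) polymerase MTPAP (1.34), the exonuclease PNPT1 (1.04), the transcription factor TFB2M (1.52), the rRNA methyltransferase TFB1M (1.70), and TRMT10C (0.71) and HSD17B10 (0.75) of mitochondrial RNase P. LRPPRC counted 50.5 and 73.5 CPM in untreated WT and 135 and 166 CPM in untreated knockdown, without overlap. In irradiated cells the list's only call was SSBP1, the single-strand DNA binding protein of mitochondria, at -0.70 (3.45% of the list, background 5.1%). The list's median difference there was 0.33, beside -0.0003 over all genes tested, and 22 of its 29 genes were positive. SLIRP was also the list's only call for irradiation in WT (0.63, SE 0.13, edgeR adjusted p = 0.0289), from 659 and 712 CPM to 1112 and 976 CPM. That is 3.45% of the list, beside 1.65% of all genes and 3.56% of those whose average log2 CPM was 5 or more. Calls of pathway genes, here and in the next paragraph, were not checked under the alternatives.

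Of 48 tested assembly factors, 2 were called higher (COA4 at 0.94 and NDUFAF2 at 0.68) and 3 lower (COX19 at -1.36, NDUFAF3 at -0.77 and COX14 at -0.74) in untreated knockdown, which is 10.4% beside the 9.94% of all genes. None was called in irradiated cells, where 5.1% of all genes were. NDUFAF4, an assembly factor of complex I, was the list's only call for irradiation over both genotypes (0.84, SE 0.17, edgeR adjusted p = 0.0239). This is 2.08% of the list, beside 1.49% of all genes. Of 10 regulators of respiratory genes, MYC alone was called, higher in the knockdown in both comparisons (1.01 and 1.08). Of 17 genes of pyruvate dehydrogenase and the citric acid cycle, PDHA1 alone was called, higher in untreated knockdown (0.79), which is 5.88% of the list and below the background. With so few genes, 1 call is 10.0% of the regulators and 12.5% of the 8 carriers, porins and the ATP synthase inhibitor, near the background in untreated cells (9.94%, and 5.1% in irradiated cells). Among the latter UCP2, an inner membrane carrier, was called in both comparisons: 352 and 332 CPM in untreated WT against 35.7 and 53.5 CPM in untreated knockdown (-2.996, SE 0.22, edgeR adjusted p = 1.33e-06), and 289 and 256 against 60.7 and 47.1 CPM after irradiation (-2.41, SE 0.21).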

How the data were processed

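Per the submitters' processing notes, reads were trimmed with Trimmomatic 0.36, aligned to hg38 with HISAT2 2.1.0 and counted with HTSeq 0.9.1. The authors deposited raw counts, 1 whole number for each gene in each cell. The annotation, the use of strand and the use of molecular identifiers are not given in the sources used here. Cells with at least 1000 genes and 5000 counts were kept and their counts summed per library. The sums were fitted for 4 groups together with edgeR 4.0.16 (R 4.3.3: filterByExpr, TMM scaling, quasi-likelihood test, Benjamini-Hochberg adjustment over 12456 genes), which left 4 residual degrees of freedom and a common biological coefficient of variation of 0.458. The scripts were tested on simulated data. Library numbers within a group follow the order of deposition and pair nothing.

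Alternatives were DESeq2 1.42.0, limma 3.58.1, other scalings, filters and cell minimums, and leaving out each library. Genes named are the members called in any comparison, the member of each nuclear complex with the smallest p for irradiation in each genotype and for knockdown in untreated cells, all mitochondrial genes, SDHA to SDHD, CYC1, CYCS, and pathway genes that were called; other members named as not called, as core subunits or beside a related gene were chosen after their values were seen. The members and lists were chosen with earlier results of these data known. Positions and overlaps are from GENCODE 29. Promoters came from RefSeq, and 21 members had no window.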

Additional observations from a re-analysis of the deposited data

Results flagged for a closer look

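Mitochondrial shares of all counts moved in opposite directions after irradiation in the genotypes, with every irradiated library above every untreated one in WT and below in the knockdown. The log2 ratio of the irradiated to the untreated mean share was 0.0779 in WT and -0.144 in the knockdown for all mitochondrial members. It was 0.171 and -0.355 for complex III, which is MT-CYB alone, and 0.212 and -0.273 for complex V, which is MT-ATP6 and MT-ATP8. The difference of these shares between genotypes was not tested.

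Single members are listed here because their irradiated and untreated libraries did not overlap in either genotype and lay in opposite directions in the 2 genotypes. How many of all genes met this rule was not counted, so the list itself is no evidence of a difference. The difference itself was tested in the edgeR fit. The response in the knockdown minus that in WT was -0.84 on the log2 scale for MT-ATP8 (adjusted p = 0.0507), -0.54 for MT-CYB (adjusted p = 0.0597), -0.45 for MT-ATP6 (adjusted p = 0.130) and -0.27 for MT-CO2 (adjusted p = 0.434). Among nuclear members it was -1.29 for ATP5S (adjusted p = 0.308), -0.44 for NDUFB9 (adjusted p = 0.683) and -1.18 for UQCRC2 (adjusted p = 0.851), which counted at most 5.90 CPM in any library. None of these passed 0.05, with 2 libraries per group.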

How the results depend on the processing

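With 2 libraries per group, 4 residual degrees of freedom and a title suffix that follows genotype, small differences could not be resolved. No paired analysis was possible because the titles give no replicate numbers shared between groups. For the alternatives below, the share of all genes called is given above only for the DESeq2 Wald test in the knockdown and in the difference of responses. The other counts of members under alternatives have no background beside them, so a rise in them is not shown to be particular to the members. The irradiation result in WT (2 members called) went to 1 with DESeq2 size factors or with mitochondrial genes out of the scaling, to 4 with no filter or with genes of 5 log2 CPM or more, to 0 with only the compared groups, and to 5 with the DESeq2 Wald test and with limma on mean CPM per cell (4 higher and 1 lower). Leaving out single libraries gave 0 to 5. In the knockdown (0 called) the count was 2 with no filter, 1 without cells above 2 times the median total, 1 with only the compared groups, 2 with DESeq2 and 6 with limma, and 0 to 2 without single libraries. Over both genotypes (1 called) it was 3, 2 and 2 with no filter, with at least 5 log2 CPM and without large cells, 4 with DESeq2 and 5 with limma, and 0 to 2 without single libraries. For the difference of responses (0 called) these were 3, 1, 1, 4 and 1, and 1 to 3. The knockdown counts stayed within 1.5 times of 31 and 24 under each alternative but those that left out libraries, which gave 27 to 32 and 13 to 28. Of the calls, 22 of 31 and 11 of 24 held under every alternative run. The log2 ratios of the summed shares were, for nuclear members after irradiation, 0.13 in WT (0.045 to 0.226 without single libraries) and 0.031 in the knockdown (-0.028 to 0.092; 0.0999 as a mean over cells). For mitochondrial members they were 0.0779 in WT (0.040 to 0.115; 0.0111 over cells) and -0.144 in the knockdown (-0.198 to -0.088; -0.341 over cells and -0.217 thinned). Knockdown against WT gave -0.11 (-0.20 to -0.020) and -0.21 (-0.235 to -0.194) for nuclear members, and 0.28 (0.22 to 0.33; 0.472 over cells and 0.375 thinned) and 0.058 (0.020 to 0.096; 0.121 and 0.114) for mitochondrial members. Values without a call changed sign for SDHA after irradiation in WT (-0.0534 without large cells) and for SDHB in untreated cells (0.0286 without library 2 of the untreated knockdown, -0.482 without its library 1); the cause was not tested. Leaving out cells above 20% mitochondrial counts was chosen after seeing the data and changed no count by over 1.5 times.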
